A study of Mus musculus with 8 samples.

Results

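Stretches of chromatin that were open in retinal ganglion cells (RGCs) with GFP and with catalytically dead Ezh2, and had no called peak with active Ezh2, were collected and described. Of 186387 regions on chromosomes 1 to 19 of the mouse, made by merging peaks that shared at least 1 bp across 8 ATAC-Seq lists (a sequencing assay of open chromatin), 2085 had a peak in all 3 GFP lists and both Ezh2-Y726D lists and in none of the 3 Ezh2 lists. The regions were thus chosen by the presence and absence of peaks, and their absence from the Ezh2 lists is the rule, not a result. Adult C57BL/6J mice received adeno-associated virus carrying GFP (AAV2-GFP, the control), Ezh2 (AAV-Ezh2 in the labels) or the enzyme-dead form (AAV2-Ezh2-Y726D) in the vitreous, and every group underwent optic nerve crush (ONC) 2 weeks after the virus. RGCs were sorted 3 days after ONC by the surface protein Thy1, which T cells also carry, and 50000 cells went into each library. The labels call the samples replicates without saying whether they came from separate animals, so p-values measure the spread between these samples, which may be technical.

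Ezh2 is the catalytic subunit of Polycomb repressive complex 2 (PRC2), which places methyl groups on lysine 27 of histone H3. That mark is typical of repressed developmental genes, whose chromatin becomes compact and less open to enzymes. In ATAC-Seq a transposase inserts sequencing adapters where DNA is open, so a peak marks an accessible stretch, most often a promoter or an enhancer. A region without a peak is one where the reads of that library did not pass the peak caller's threshold. It is not shown to be closed. In a sorted population, a change in how many cells of a type were present and a change in openness per cell cannot be told apart.

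Few of the regions reached a start site, and the windows of those that did are described here. RefSeq windows of 250 bp before to 50 bp after a start site (GRCm38.p6) overlapped 47 of the 2085 regions (2.25%), in 61 windows, of which 40 belonged to long noncoding RNAs and 21 to protein-coding genes. The windows came from 47 genes and are not independent, since 13 were nearby start sites of the noncoding gene 5430401H09Rik, and Gm41638 and Pafah2 had 2 each. Among the protein-coding windows, 6 of the strongest are shown as the 250 bp upstream of the start site, 5′ to 3′ in the direction of transcription. Those of 1700028P14Rik and LOC115488789, which carry only clone or locus names, were passed over. Capitals mark bases inside the merged region. They were picked after their values had been seen. Olfr317 encodes an olfactory receptor, P2ry12 the ADP receptor that marks resting microglia, Otoa otoancorin of the inner ear, Slc15a2 a peptide transporter and Lcat an enzyme that esterifies cholesterol in plasma. None of them is known as a gene that defines RGCs.
Olfr317 (chr11:58733224-58733473, minus strand): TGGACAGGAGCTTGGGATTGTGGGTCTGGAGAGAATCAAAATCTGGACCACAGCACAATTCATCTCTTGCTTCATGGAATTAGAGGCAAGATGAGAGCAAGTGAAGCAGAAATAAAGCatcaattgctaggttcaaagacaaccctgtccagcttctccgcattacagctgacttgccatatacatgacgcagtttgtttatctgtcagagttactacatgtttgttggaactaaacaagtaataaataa
Lrrc66 (chr5:73632422-73632671, minus strand): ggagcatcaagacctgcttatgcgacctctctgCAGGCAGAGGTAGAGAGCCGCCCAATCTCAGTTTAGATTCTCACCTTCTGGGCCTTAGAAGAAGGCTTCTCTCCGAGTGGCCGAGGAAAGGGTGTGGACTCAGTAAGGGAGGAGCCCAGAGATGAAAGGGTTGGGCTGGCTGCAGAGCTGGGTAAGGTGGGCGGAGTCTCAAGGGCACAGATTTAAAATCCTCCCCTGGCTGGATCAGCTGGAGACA
P2ry12 (chr3:59262986-59263235, minus strand): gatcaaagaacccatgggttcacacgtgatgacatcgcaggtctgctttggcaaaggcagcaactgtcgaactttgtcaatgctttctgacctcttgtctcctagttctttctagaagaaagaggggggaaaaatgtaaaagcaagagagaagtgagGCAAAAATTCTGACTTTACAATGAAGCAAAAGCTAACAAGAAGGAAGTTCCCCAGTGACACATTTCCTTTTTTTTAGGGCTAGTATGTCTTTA
Otoa (chr7:121083174-121083423, plus strand): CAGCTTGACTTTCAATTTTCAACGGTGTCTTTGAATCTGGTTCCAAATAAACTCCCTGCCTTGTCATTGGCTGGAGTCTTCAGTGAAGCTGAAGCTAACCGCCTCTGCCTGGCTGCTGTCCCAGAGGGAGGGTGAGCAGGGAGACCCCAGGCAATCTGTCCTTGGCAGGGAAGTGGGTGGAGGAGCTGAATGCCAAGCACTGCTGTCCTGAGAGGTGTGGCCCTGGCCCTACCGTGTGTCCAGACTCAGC
Slc15a2 (chr16:36784963-36785212, minus strand): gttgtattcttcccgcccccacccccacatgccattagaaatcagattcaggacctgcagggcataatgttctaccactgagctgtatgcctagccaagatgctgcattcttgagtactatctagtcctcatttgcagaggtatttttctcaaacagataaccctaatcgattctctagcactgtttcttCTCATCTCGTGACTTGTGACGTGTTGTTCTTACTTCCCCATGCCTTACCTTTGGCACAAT
Lcat (chr8:105943403-105943652, minus strand): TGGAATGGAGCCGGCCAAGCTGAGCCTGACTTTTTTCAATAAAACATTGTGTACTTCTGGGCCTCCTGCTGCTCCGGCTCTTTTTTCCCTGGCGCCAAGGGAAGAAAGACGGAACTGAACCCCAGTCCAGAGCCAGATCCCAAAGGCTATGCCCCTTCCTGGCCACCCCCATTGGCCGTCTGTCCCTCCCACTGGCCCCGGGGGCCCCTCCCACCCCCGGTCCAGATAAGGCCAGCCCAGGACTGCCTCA

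At P2ry12, the fold of the peak over local background was 3.44, 4.71 and 4.24 in GFP replicates 1, 2 and 3 and 6.03 and 5.70 in Ezh2-Y726D replicates 1 and 2. Both Ezh2-Y726D values were above all GFP values. At Otoa the folds lay closer together, at 4.00, 4.77 and 4.68 with GFP and 4.50 and 4.36 with Ezh2-Y726D. The groups overlapped there. At Lcat the folds were 4.00, 4.07 and 4.43 with GFP and 3.84 and 6.31 with Ezh2-Y726D, and the Ezh2-Y726D replicates fell on either side of GFP.

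Base composition was compared with 1 window per gene, the one with the lowest start, a choice made after the repeats had been seen. The median GC content of the 47 windows was 50.7%, against 52.7% over 25748 genes and 61.3% over the 12997 genes with a window at a region with a peak in all 5 GFP and Ezh2-Y726D lists. CpG pairs, which cluster in the promoters of broadly used and of Polycomb-regulated genes, had a median of 5 per window, against 7 and 21. The GC box GGGCGG, bound by Sp1 and related factors, stood on either strand in 17.0% of the 47 windows, against 36.0% of all and 62.7% of those open in the 5 lists. Over all 61 windows it was 13.1%, and their median GC content was 48.3%. The CCAAT box (CCAAT) was in 31.9% of the 47 against 37.7% of all, and in 41.0% of the 61, so that its share lay below or above the background depending on the repeats. The AP-1 site TGANTCA was in 12.8% against 7.97%, the Otx/Crx site TAATCC in 10.6% against 7.24%, and the E-box CACGTG in 10.6% against 7.11%. TAATTA, the core of many homeodomain sites, was in 6.38% against 5.36%, the POU octamer ATGCAAAT in 4.26% against 1.75%, and the cyclic AMP response element TGACGTCA in 2.13% against 1.82%. These are shares of few windows, given without a test and without matching for peak strength or for coding and noncoding genes. Of the windows shown, Lrrc66 and Slc15a2 hold a GC box, Lrrc66, Otoa and Lcat a CCAAT box and P2ry12 an E-box. In the bases shown, the GC box of Slc15a2 and the E-box of P2ry12 lie outside the merged region. A match is a run of letters and not a bound site, and some of these motifs overlap when they occur together.

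The 8 lists held 112939 to 135895 peaks, and their depth in reads is unknown. Folds of weak peaks are multiples of what 1 read adds, and from that unit the background pileup came to 2.69 to 3.74 reads in GFP, 3.09 to 3.59 in Ezh2 and 2.39 to 3.12 in Ezh2-Y726D. The Ezh2 lists, in which the regions are missing, held 126271, 127547 and 135895 peaks in replicates 1, 2 and 3. GFP replicate 3 held 133674 and Ezh2-Y726D replicate 2 held 128728. The part of list length or depth in the absence was not tested. The Ezh2 lists had a mean of 129904 ± 5227 peaks (SD, n = 3), against 123143 ± 8715 in the 5 other lists (SD, n = 5). The difference of 6761 did not exceed the spread between lists (two-sided exact permutation test, p = 0.286). Their background pileup was 3.34 ± 0.246 reads against 3.04 ± 0.521 (exact p = 0.429), and the smallest p that 3 against 5 lists allow is 0.0357. Peaks within 1 kb of a gene end marked 11 to 12 of 12 RGC genes in every list. Rod markers had such peaks for 6 to 8 of 8 genes, bipolar markers for 6 to 7 of 7, amacrine markers for 5 to 6 of 6 and Müller glia markers for 5 of 6. Since markers of other retinal cells had peaks as well, these counts do not check the label. For microglia the numbers were 4 to 6 of 8 genes with GFP, 5 to 6 with Ezh2 and only 2 with Ezh2-Y726D in either list. For T cells they were 6 to 7, 7 and 3 of 7.

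The regions were weak to middling peaks. The fold of each peak was turned into a percentile among the peaks of the same list, and the median percentile of the 2085 regions was 28.5, 32.5 and 39.4 in GFP replicates 1, 2 and 3 and 43.0 and 47.3 in Ezh2-Y726D replicates 1 and 2. Regions with a peak in all 5 lists, 76565 in number, had medians between 63.5 and 68.7. The median fold was 3.79, 4.25 and 4.22 with GFP and 4.72 and 4.85 with Ezh2-Y726D. Both Ezh2-Y726D medians were above the 3 GFP medians on either scale, as the plot of percentiles by list shows. On the fold scale this order was not particular to the 2085. Regions with a peak in all 8 lists had median folds of 5.89, 6.24 and 6.33 with GFP and 6.68 and 6.60 with Ezh2-Y726D. Folds given for single regions are not scaled for this. In reads, for the 58.4% to 66.2% of folds that came within 0.02 of a whole step, the median pileup was 16, 15 and 21 with GFP and 16 and 21 with Ezh2-Y726D. In the Ezh2 lists, 38.4%, 40.7% and 42.3% of peaks came within 0.02 of a whole step. Among those, the lowest pileup was 6, 6 and 7 reads and the 5th percentile was 13 reads.

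**Figure D1:**
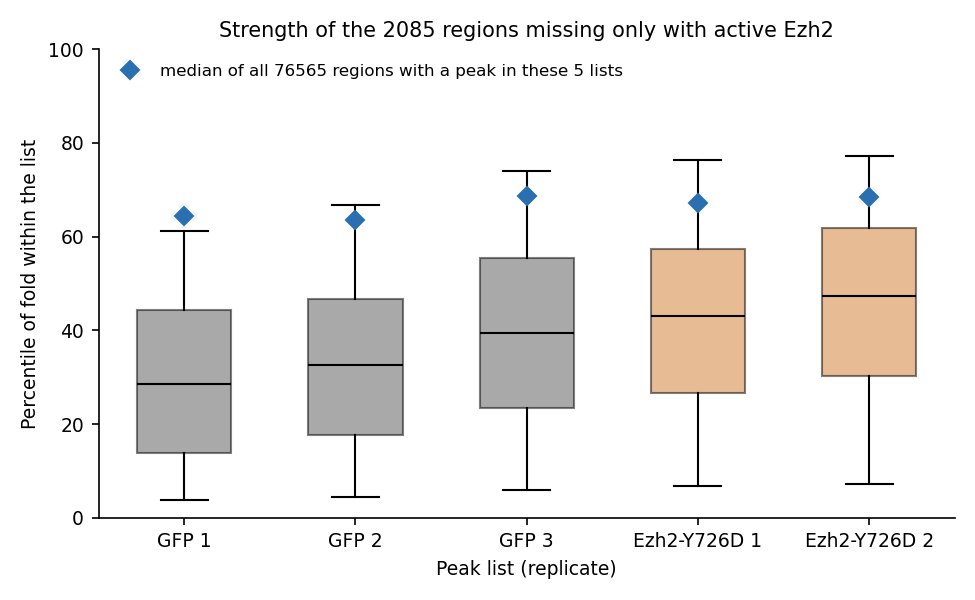
Percentile of fold within the list (vertical axis, 0 to 100) of the 2085 regions in each of the 5 lists that hold them. Boxes give the median and quartiles, whiskers the 5th and 95th percentiles, and diamonds the median of all 76565 regions with a peak in the 5 lists, which lies between 63.5 and 68.7, above every box.

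Absence from the Ezh2 lists was most frequent among weak to middling regions. Among the 76565 regions with a peak in the 5 lists, the Ezh2 lists lacked 5.70% of those with a mean percentile of 0 to 10, 6.81% at 10 to 20, 7.27% at 20 to 30 and 8.11% at 30 to 40. Above that the share fell with strength, to 5.99% at 40 to 50, 3.04% at 50 to 60, 1.22% at 60 to 70 and 0.270% at 70 to 80. Of the 10339 regions at 90 to 100, 0 were missing from all 3 Ezh2 lists and 5 were missing from 1 of them. The mean percentile of the 2085 regions ranged from 0.672 to 84.5 with a median of 39.1, and 13 (0.624%) were over 75. In their weakest list 583 (28.0%) fell under the 10th percentile, whereas 92 (4.41%) stayed at or above the 50th in all 5 lists. A −log10 q of at least 5 in all 5 lists was met by 643 (30.8%).

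**Figure D2:**
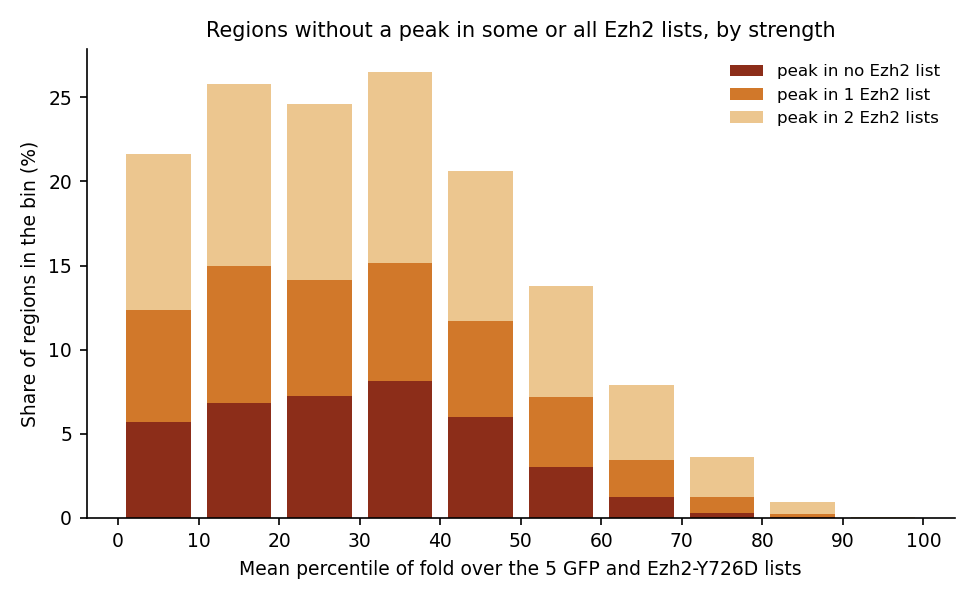
Share of regions (percent) with a peak in 0, 1 or 2 of the 3 Ezh2 lists, stacked, by the mean percentile of fold over the 5 GFP and Ezh2-Y726D lists in bins of 10. The share in no Ezh2 list was 8.11% at 30 to 40 and 0% at 90 to 100.

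Just outside the rule lay 2350 regions with a peak in the 5 lists and in 1 Ezh2 list, and 2507 with a peak in 4 of the 5 and in no Ezh2 list. The former had a median mean percentile of 42.1 and the latter 31.0, against 39.1 inside. The lone Ezh2 peak of the 2350 was weak, at a median percentile of 19.7 and a fold of 3.46, and it came from Ezh2 replicate 1 in 375 regions, replicate 2 in 984 and replicate 3 in 991. Of the 2507, GFP replicate 1 was the list without a peak in 1138 and GFP replicate 2 in 783, against 172 for GFP replicate 3 and 287 and 127 for the Ezh2-Y726D replicates. The number inside depended on single lists accordingly. It was 3224 without GFP replicate 1, 3074 without Ezh2 replicate 2 and 3081 without Ezh2 replicate 3.

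Shape was simple. The median width of the 2085 regions was 574 bp (quartiles 474 and 691), against 898 bp for the 76565, and 94.9% had exactly 1 peak in each of the 5 lists, against 87.1%. Summits of the 5 lists scattered with a median SD of 62.1 bp, against 46.3 bp. Few regions adjoined a peak called with Ezh2. The nearest peak of any Ezh2 list was a median of 4316 bp away (quartiles 1668 and 10812), within 500 bp for 147 regions (7.05%) and over 10 kb away for 562 (27.0%). The median gap from 1 region to the next was 662 kb, and 47 neighbouring pairs lay within 10 kb. Every autosome held some, from 2.27% of its 5-list regions on chromosome 9 to 3.35% on chromosome 3.

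The strongest 12 by mean percentile had folds of 5.18 to 11.2, a strength at which few regions were missing from the Ezh2 lists. At chr9:26948678-26949309, 24829 bp from Acad8, which encodes a mitochondrial enzyme of valine breakdown, the folds were 5.65, 8.41 and 9.29 with GFP and 11.2 and 9.22 with Ezh2-Y726D. At chr19:16113277-16113839, 18845 bp from Gnaq, which encodes the Gq alpha subunit that couples receptors to phospholipase C, they were 8.71, 7.05 and 7.60 with GFP and 8.56 and 7.76 with Ezh2-Y726D. The groups overlapped at both, and the summits at the Gnaq region scattered by an SD of 4.51 bp over the 5 lists.

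The nearest coding gene to chr12:67313360-67313861 was Mdga2, 90811 bp away, which encodes a synaptic surface protein that binds neuroligins. That region had folds of 6.12, 7.60 and 7.39 with GFP and 8.56 and 9.22 with Ezh2-Y726D. The region chr19:30278977-30279556, 39290 bp from Mbl2, a lectin of the complement system, had 7.06, 7.87 and 6.75 with GFP and 8.56 and 9.22 with Ezh2-Y726D. In both, and in the region inside Fars2 (a mitochondrial tRNA synthetase), the Ezh2-Y726D folds were above all GFP folds. The region inside Tekt5 (chr16:10366246-10367043), a gene of the sperm flagellum, had 7.06, 9.22 and 6.12 with GFP and 7.97 and 10.7 with Ezh2-Y726D, which overlap. The other regions of the 12 lay inside Ccser1, Tmem117 and Mctp1 and nearest to Actl7b, Rab29 and Zbtb10, at 232604, 13214 and 49856 bp. The 12 regions sat 771 bp or more from any Ezh2 peak, and none was within 1 kb of a gene end.

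**Figure D3:**
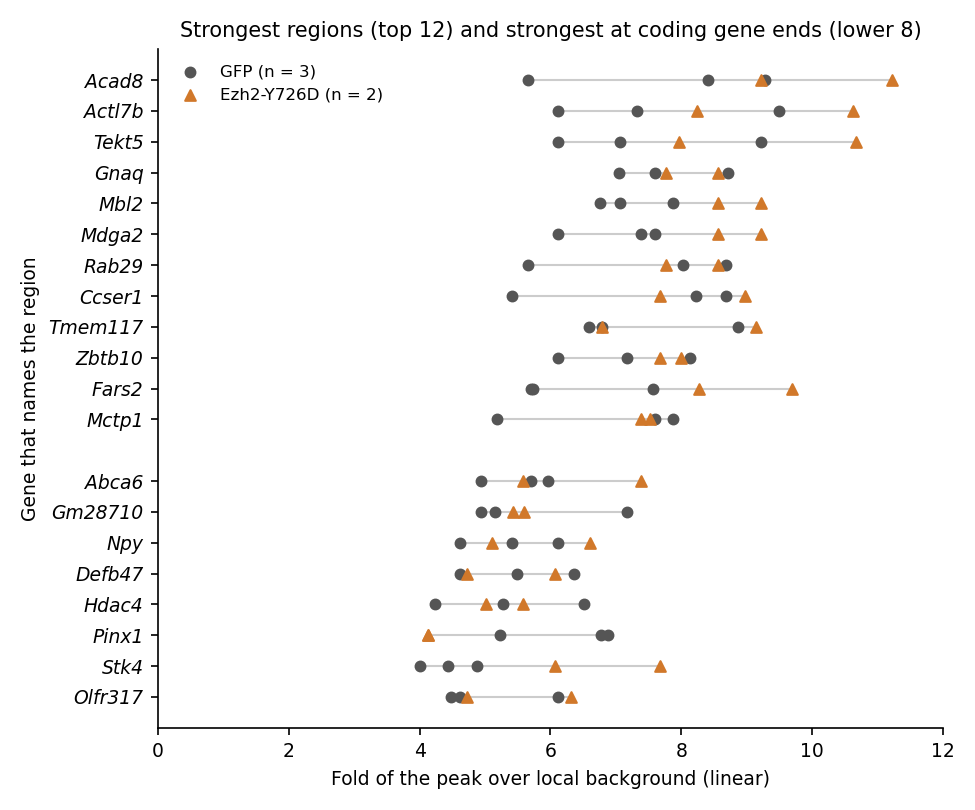
Fold of the peak over local background (horizontal axis, linear from 0) in the 3 GFP lists (circles) and the 2 Ezh2-Y726D lists (triangles) for the 12 strongest regions, above, and the 8 strongest at the ends of protein-coding genes, below. Grey lines span lowest to highest. Folds run from 5.18 to 11.2 in the upper set, and no Ezh2 list holds a peak in any of them.

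Gene ends were the exception among the 2085 regions. Within 1 kb of either end of a gene lay 185 (8.87%), against 15.2% of all 186387 regions and 24.4% of the 76565. Gene bodies overlapped 1248 (59.9%), against 71.4% of the 76565, and 798 (38.3%) lay between genes, against 26.7%. The median distance to the nearest RefSeq start site was 33.9 kb against 21.1 kb. Since the share at gene ends varied with strength, the shares were also set side by side at like strength. At a mean percentile of 30 to 40, 8.95% of the regions and 14.4% of the other 5-list regions were at a gene end. At 40 to 50 it was 7.75% and 14.7%, and at 50 to 60 it was 9.27% and 15.6%. The lower share held in each bin plotted, and, being shares within a set the rule chose, these are given without a test. Regions missing only with Ezh2-Y726D, 6791 in number, had 13.0% at a gene end, the 3689 open only with active Ezh2 had 10.4%, and the 934 missing only with GFP had 7.17%. A low share at gene ends was thus not particular to the regions missing with active Ezh2.

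**Figure D4:**
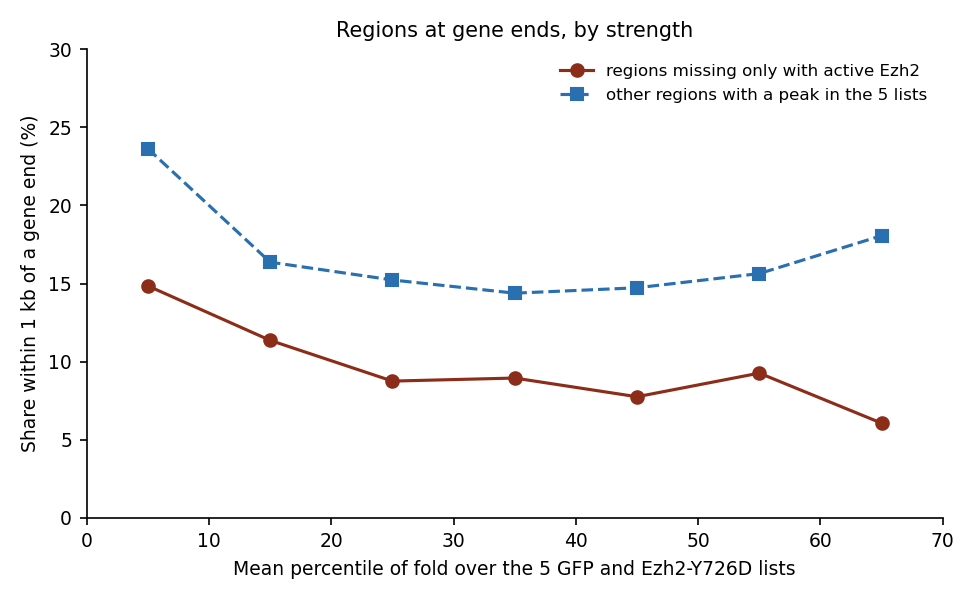
Share of regions within 1 kb of a gene end (percent) by mean percentile of fold over the 5 lists, for the regions missing only with active Ezh2 (circles) and the other regions with a peak in the 5 lists (squares). Bins with at least 100 of the former are plotted. At 30 to 40 the shares are 8.95% and 14.4%.

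Ends of protein-coding genes held 67 of the regions (3.21%), 24 of them at the end with the start site and 31 at the far end, as far as RefSeq strands resolved them. The strongest 8 included Npy, which encodes neuropeptide Y and whose RNA, per the study, was raised by both Ezh2 and Ezh2-Y726D. Its region, chr6:49828641-49829267, reaches to 240 bp from the far end of the gene, with folds of 5.42, 4.61 and 6.12 with GFP and 5.11 and 6.60 with Ezh2-Y726D. The groups overlap, and the nearest Ezh2 peak was 5381 bp away. Hdac4, a class II histone deacetylase, had a region 70 bp beyond the end of the gene with its start (chr1:92195772-92196116), at 4.24, 6.51 and 5.28 with GFP and 5.02 and 5.58 with Ezh2-Y726D. The nearest start site of the RefSeq windows was 15431 bp from it, so an end with the start is not always near such a site. Stk4, the Hippo pathway kinase Mst1, had a region 426 bp past its far end, at 4.00, 4.88 and 4.43 with GFP and 7.67 and 6.06 with Ezh2-Y726D, and there the Ezh2-Y726D folds were above all GFP folds. At Pinx1, an inhibitor of telomerase, the order was the reverse, with 6.88, 6.78 and 5.23 with GFP and 4.13 and 4.12 with Ezh2-Y726D. Abca6, Gm28710, Defb47 and Olfr317 completed the 8, with folds of 4.47 to 7.38.

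Bodies of 873 protein-coding genes held 1036 of the regions (49.7%), 130 genes held at least 2 and 29 at least 3. Those with 4 each were Arhgap26, Cntnap2, Exoc4, Grid1, Rad51b and Thsd4, all between 551 and 2241 kb long. Exoc4 encodes a subunit of the exocyst, which docks vesicles at the plasma membrane. Its regions reached folds of 3.53 to 7.38, and 29 of 34 5-list regions in its body had a peak in every list. Cntnap2 encodes a neurexin-like adhesion protein of the axon, and there 22 of 35 did. Arhgap26, which encodes a GTPase-activating protein, had 49 of 60. In each of these long genes the missing regions were thus a minority among open ones.

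Genes of the study's own theme were then counted, taking regions in a gene body or within 10 kb of it. Over all 20665 protein-coding genes, 1144 (5.54%) had such a region, and of 69597 pairs of a gene and a 5-list region 1.91% were with a missing region. Genes of the lists on channels, receptors and guidance are long, with a median of 222, 183 and 154 kb against 17.5 kb, so the share of their open regions is given as well. Among 45 ion channel genes 10 had a missing region, in 14 of 543 pairs (2.58%). Among 47 neurotransmitter receptor genes 7 did, in 14 of 437 (3.20%), and among 49 axon guidance genes 12 did, in 17 of 582 (2.92%). All 3 shares lie above the 1.91% over all coding genes, and no test was made of them. Over all 76565 5-list regions, at genes or not, 2.72% were missing. The ion channel share lies below that, and the receptor and guidance shares lie above it, so the reading depends on the background. None of 30 PRC2 and PRC1 subunit genes had one, and 2 of 70 developmental transcription factors under Polycomb did (Tbx5 and Sox2, both outside the gene body), in 2 of 133 pairs (1.50%).

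Of 9 genes the study lists as lowered by Ezh2, 2 had a region. Slc6a13, which encodes the GABA transporter GAT2, had chr6:121328491-121329016 inside its body, with folds of 3.32, 4.65 and 3.37 with GFP and 3.47 and 3.28 with Ezh2-Y726D. It was weak, at a mean percentile of 20.1, the nearest Ezh2 peak was 730 bp away, and it was 1 of 5 open regions at the gene. Epha6, an ephrin receptor, had chr16:59968530-59969301 inside, with 3.77, 3.80 and 5.49 with GFP and 3.25 and 4.85 with Ezh2-Y726D, 448 bp from an Ezh2 peak and 1 of 15 open regions. The groups overlapped in both. Npy was the only gene with a region among 12 listed as raised. Per the study, Ezh2-Y726D also lowered Slc6a13 RNA and raised Npy RNA, so these RNA changes were not particular to active Ezh2. For Epha6 the study reports no decrease with Ezh2-Y726D. The study chose these genes on RNA from the same treatments, so their counts are not independent evidence of a direction.

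Ion channel genes with a region were the sodium channel Scn8a, the calcium channel genes Cacna1a, Cacna1b, Cacna1g, Cacna2d3 and Cacnb4 and the potassium channels Kcnh1, Kcnh7, Kcnn2 and Kcnq3. In Scn8a, which carries the sodium current of the axon initial segment, chr15:101028569-101029558 had 4.66, 7.11 and 5.31 with GFP and 5.63 and 4.97 with Ezh2-Y726D. In Kcnh1, chr1:192283232-192283788 had 4.47, 4.61 and 3.80 with GFP and 7.08 and 7.03 with Ezh2-Y726D. The groups overlapped in Scn8a and not in Kcnh1. Kcnh7 held 3 regions of 13 open ones, at mean percentiles of 33.6, 58.2 and 39.0.

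Receptor genes with a region included the NMDA receptor subunits Grin2a and Grin2b, the kainate receptor subunit Grik3, the metabotropic glutamate receptor Grm8, the GABA receptor subunit Gabra5 and Grid1, a delta receptor that binds glycine and D-serine. Grin2b held 3, of which chr6:136091264-136091668 had 3.53, 4.34 and 4.85 with GFP and 5.61 and 7.28 with Ezh2-Y726D. Both Ezh2-Y726D folds were above all GFP folds there, whereas in Grm8 chr6:27425462-27426620, with 5.18, 3.80 and 5.91 against 5.36 and 5.21, the groups overlapped.

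Axon guidance genes with a region comprised the semaphorins Sema3a, Sema4a and Sema4d, the semaphorin receptors Plxnc1 and Nrp1, the ligand Slit3 with the Slit receptor Robo2, the netrin receptor Unc5c, the ephrin system members Epha3, Ephb2 and Efna5, and the receptor phosphatase Ptprd. The strongest lay in Robo2, chr16:74631797-74632387, with 5.89, 5.15 and 5.07 with GFP and 7.67 and 6.56 with Ezh2-Y726D and no Ezh2 peak within 43137 bp. In Slit3, chr11:35512652-35514014 had 3.53, 5.70 and 7.39 with GFP and 5.17 and 6.25 with Ezh2-Y726D. The groups were apart in Robo2 and overlapped in Slit3. At Sema4a the region covered the start-site window and was weak, with 3.76, 3.54 and 2.92 with GFP and 2.94 and 2.81 with Ezh2-Y726D.

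Marker genes of cell types were counted in the same way, against the 5.54% of all coding genes with a region. A region was found at 1 of 12 RGC genes (Rbpms), 0 of 8 rod, 1 of 7 bipolar (Trpm1), 0 of 6 amacrine, 1 of 6 Müller glia (Slc1a3), 2 of 8 microglia (Cx3cr1 and P2ry12) and 0 of 7 T cell genes. The lists are too short for a comparison with that share. At Cx3cr1, the fractalkine receptor of microglia, the region lay 9502 bp outside the gene, with 3.95, 3.07 and 2.97 with GFP and 4.57 and 5.43 with Ezh2-Y726D. Both microglial regions were highest with Ezh2-Y726D, in whose lists the fewest microglia genes had a peak at a gene end (2 of 8). The part of immune cells in these regions was not tested.

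Whether the regions differed between the groups that do have them was asked with limma, on normal scores of the ranks of fold within each list, over all 76565 regions with a peak in the 3 GFP and 2 Ezh2-Y726D lists. The rule used the presence of peaks in both groups but not their ranks. The regions missing with active Ezh2 tended to rank higher with dead Ezh2 than with GFP. Their median difference, Ezh2-Y726D minus GFP, was 0.245 (quartiles -0.0756 and 0.547), against -0.0123 over all regions tested, and it was positive in 1458 of 2085 (69.9%) against 48.8%. At a Benjamini-Hochberg adjusted p under 0.05 in limma, 91 were higher with Ezh2-Y726D (4.36%, against 2.65% of all regions tested) and 15 were lower (0.719%, against 3.61%). Both Ezh2-Y726D ranks exceeded all 3 GFP ranks in 578 (27.7%, against 19.4%), and both were below them in 114 (5.47%, against 21.5%).

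The number of calls rested on few libraries, and the direction did so less. The number fell from 106 to 18 without GFP replicate 3. It fell further without either Ezh2-Y726D replicate, which leaves 1 sample in that group. With 1 sample left in the group, that sample is assumed to vary like the others. The median difference stayed between 0.199 and 0.274 whichever library was left out. In bins of strength it was 0.203 at a mean percentile of 20 to 30, 0.260 at 30 to 40 and 0.280 at 40 to 50, against -0.00465, 0.00530 and 0.0378 in the other 5-list regions. Regions with a peak in 1 Ezh2 list had 0.254, those in 2 had 0.184 and those in 3 had -0.0354. Fewer microglia and T cell genes had peaks with Ezh2-Y726D than with GFP, as given above, and the part of such cells in the difference was not tested.

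**Figure D5:**
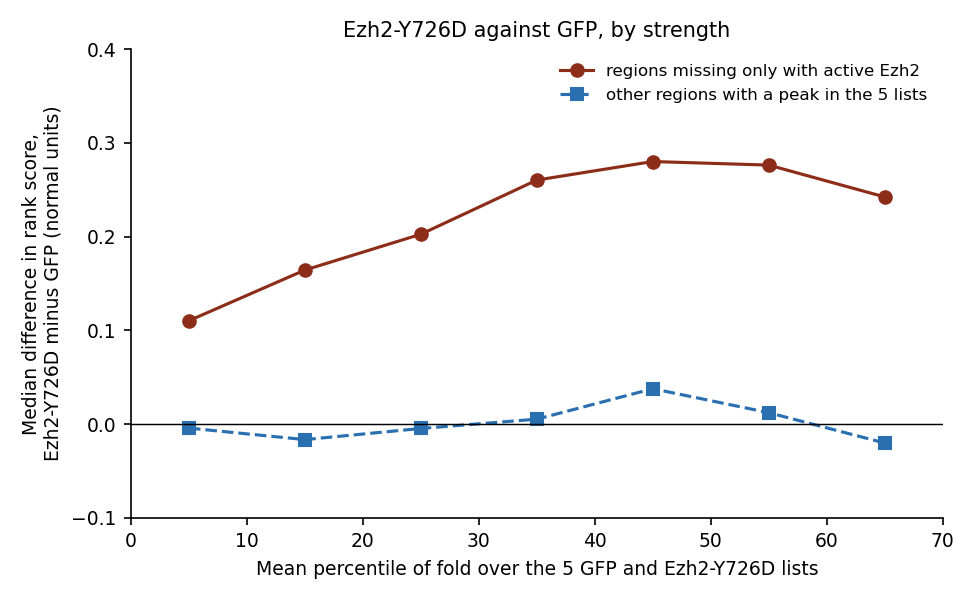
Median difference in rank score, Ezh2-Y726D minus GFP in normal units (vertical axis), by mean percentile of fold over the 5 lists, for the regions missing only with active Ezh2 (circles) and the other 5-list regions (squares). The former lie above 0 in each bin, at 0.280 at 40 to 50, and the latter between -0.0202 and 0.0378.

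Among the called regions, the largest increases with Ezh2-Y726D were near Os9 and inside Cyba and Cxcl16. The region 10341 bp from Os9, which acts in the disposal of misfolded proteins from the endoplasmic reticulum, had folds of 3.10, 3.35 and 2.98 with GFP and 7.38 and 7.03 with Ezh2-Y726D (chr10:127131501-127132263, difference 2.03 ± 0.208 SE, limma adjusted p = 0.00925). Cyba, which encodes a subunit of the phagocyte NADPH oxidase, had 3.04, 2.94 and 2.25 against 5.35 and 5.64 (chr8:122427304-122427966, 1.89 ± 0.302, limma adjusted p = 0.0157). Cxcl16, a chemokine gene, had 2.58, 2.31 and 2.21 against 4.55 and 4.21 (chr11:70456835-70457282, 1.79 ± 0.235, limma adjusted p = 0.00984). The groups did not overlap in any of the 3, which were picked for the size of their difference. Kcnh1 was the only called region among the genes of the lists (1.04 ± 0.249, limma adjusted p = 0.0443). The lists held 14 regions at ion channel, 14 at receptor and 17 at guidance genes, besides those at other listed genes. Over all 76565 regions tested, 2.65% were called higher and 3.61% lower, so this single call is not a result about the lists. Kcnh1 was singled out after its value had been seen.

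The largest decreases were in or near Pgpep1, Tmpo and Gm32309. Pgpep1, a peptidase gene, had 7.76, 6.23 and 7.16 with GFP and 3.11 and 4.70 with Ezh2-Y726D (chr8:70650138-70650798, difference -1.71 ± 0.347 SE, limma adjusted p = 0.0279), and an Ezh2 peak lay 420 bp from it. The region 67905 bp from Tmpo, which encodes a protein of the inner nuclear membrane, had 4.47, 6.24 and 5.07 against 2.95 and 3.15 (chr10:91249657-91250104). Inside Gm32309 the folds were 6.77, 7.08 and 7.82 against 4.13 and 4.37 (chr7:108980292-108981183). Over 10 alternatives each, the limma adjusted p reached 0.0749 near Os9, 0.119 in Cyba, 0.0813 in Cxcl16, 0.150 in Pgpep1, 0.103 near Tmpo and 0.0835 in Gm32309, and every direction stayed the same.

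Finally, the open chromatin around the regions was compared between Ezh2 and GFP. This rests on regions that the rule left out, but on the same libraries that chose the missing ones. Regions with a peak in all 8 lists within 20 kb of a missing one numbered 3209. Their median difference in rank score, Ezh2 minus GFP, was 0.00978, against 0.0102 over all 68278 regions with a peak in the 8 lists. In limma over those 68278 with all 8 samples in 1 fit, 102 flanking regions were lower with Ezh2 at an adjusted p under 0.05 (3.18%, against 2.86% of all) and 69 were higher (2.15%, against 1.61%). Within 5 kb, 744 regions had a median difference of 0.103, and it was positive in 59.7% against 51.3% of all. Of these, 27 were lower (3.63%, against 2.86%) and 25 higher (3.36%, against 1.61%). Within 5 kb both shares thus exceeded those of all regions, the share that was higher by more. No test of them as a set was made, and the 5 kb counts were not repeated with a library left out. The 171 calls within 20 kb fell to between 64 and 134 when a library was left out, with 64 without GFP replicate 3, 65 without Ezh2 replicate 3, 67 without GFP replicate 2, 73 without Ezh2 replicate 1 and 101 without GFP replicate 1.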

How the data were processed

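Peaks were called by the authors in each sample separately and deposited as 1 narrowPeak list per sample. Per the labels, the submitters' processing notes name cutadapt, Bowtie2, SAMtools, Picard, MACS2 and deepTools and the build GRCm38, without versions. The deposited fold (a ratio of pileup at the summit to local background), −log10 p-value, −log10 q-value and score come from the authors' peak caller. Peak names carry tags for mapping quality 10, sorting and duplicate removal. Depth is not given in the sources used here, so intervals that need it are omitted.

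Peaks sharing at least 1 bp were merged on chromosomes 1 to 19 (Python 3.11.15). A region took the highest-fold peak of each list. Genes and start-site windows came from RefSeq GRCm38.p6. Exons, and sequence beyond the windows, were not used here, and no start-site window lay on chromosome 18. Scores were compared with limma 3.58.1 in R 4.3.3 (lmFit, eBayes). In simulated data without change limma called 0 regions. Of 200 regions shifted by 2 units it recovered 97 among 76565 (Ezh2-Y726D against GFP) and 156 among 68278 (Ezh2 against GFP), where it also called 6 regions that had not been shifted, against 0 in the former. A shift of 2 units is large beside the median difference of 0.245 between Ezh2-Y726D and GFP, and smaller shifts were not simulated. Single values were compared with exact permutation tests.

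Members and gene lists were chosen with earlier results of these data known. Named were the 12 strongest regions, the 8 strongest at coding gene ends, listed genes (1 of them is not reported here), the genes with most regions (3 planned, 6 tied) and the 3 largest called differences in each direction.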

Additional observations from a re-analysis of the deposited data

How the results depend on the processing

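The number of regions stayed within 1.5 times of 2085 under most of the 14 alternatives (12 of 14). It was 643 when the peaks of the 5 lists had to reach a −log10 q of 5, and it ranged from 2226 to 3224 when 1 library was left out. The share at a gene end was 16.9% when gene ends were taken within 3 kb and 8.18% to 9.07% when 1 library was left out. The difference in list length passed the threshold under none of its 9 alternatives, with differences of 3766 to 9394 peaks when 1 library was left out (exact p from 0.171 to 0.667). Calls of Ezh2-Y726D against GFP numbered 41 when regions were ranked by −log10 p and from 0 to 79 when 1 library was left out. With the replicate number of the titles as a replicate block limma called 0, and with the numbers of the peak names, an alternative chosen after seeing the data, 67. No label says that a number pairs samples, and deviations of same-numbered samples correlated at 0.0302 and -0.0118 by title and 0.0118 and 0.0429 by peak name. Calls in the flanks numbered 52 within 5 kb, 403 within 50 kb, 113 with the replicate block, 103 with that of the peak names, and from 64 to 134 when 1 library was left out. The cause of these changes was not tested, beyond the smaller or larger number of regions that a distance or threshold leaves. No region of the 6 named for Ezh2-Y726D against GFP changed direction in 10 alternatives. Peaks are lists of what passed a threshold, so a weak region can be lost from a list by little, and 30.8% of the regions reached a −log10 q of 5 in all 5 lists.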
